A study of Mus musculus with 40 samples.

Results

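The livers compared here came from 9 mice with a liver-specific deletion of PPARγ (KO): 5 KO mice on a low-fat control diet (mice 1 to 5) and 4 KO mice on the same diet with pioglitazone (Pio) mixed into it (mice 11, 12, 14 and 15). They are 9 of the 40 mice of the series, in which 8 groups of 5 covered 2 genotypes, control or high-fat diet (HFD), and presence or absence of Pio. All were male, 5 months old and labelled C57BL6/J. The remaining KO mouse on Pio, number 13, was left out because its library lay far from every other KO library, and is given below as a check. In the KO mice, Cre was driven by the albumin promoter, which is active in hepatocytes, and both KO groups carried the deletion. Whole liver was measured, so the counts do not show which cells kept the gene. Wildtype (WT) mice on control diet, 5 without and 5 with Pio, and KO mice on HFD, 5 without and 5 with Pio, served for comparison and shared no animal with the 9.

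Pio is a thiazolidinedione that binds PPARγ, a nuclear receptor that pairs with RXR on DNA and switches on genes of fat uptake and storage, above all in adipose tissue. Hepatocytes without PPARγ still contain the related receptor PPARα, which governs fatty acid oxidation, the SREBP factors, which govern the synthesis of fatty acids and sterols, and the unfolded protein response, which sets the level of chaperones in the endoplasmic reticulum (ER). The comparison therefore asks which liver mRNAs differ with Pio when the gene is deleted with a Cre that is active in hepatocytes.

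The libraries of the 9 mice held 21542958 to 27183558 counts on genes. Reads were counted per gene and are given as CPM, counts scaled to the library total, after TMM scaling, in which a 1-CPM gene is backed by more than 20 reads in each library. The median correlation of each of the 9 libraries with the other KO libraries was 0.973 to 0.988, against 0.788 for mouse 13. Of the hepatocyte markers, Alb, the gene of serum albumin, stood at 64093 to 88596 CPM in the control mice and 70784 to 97393 CPM in the Pio mice, and the summed hepatocyte markers were 100713 to 131199 CPM and 105757 to 139945 CPM. The p-values come from a fit of 39 mice, which share 1 estimate of the spread between mice. A fit of the 9 mice alone called 42 genes, 21 of them among the 72 given below. WT and KO libraries came as separate tables, so that in a comparison of levels genotype and table cannot be told apart.

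Pparg itself was counted in every KO mouse. Its level was 7.82, 6.44, 3.67, 8.98 and 9.9 CPM in control mice 1 to 5 and 3.01, 6.57, 4.31 and 4.37 CPM in Pio mice 11, 12, 14 and 15. The KO control mean of 7.36 ± 2.44 CPM (SD, n = 5) lay within 1 SD of the WT control mean of 8.59 ± 2.04 CPM, so the gene-level count does not show the deletion. A count over the whole gene cannot separate the deleted exons from those that are still transcribed, nor hepatocytes from the other cells of the liver. With Pio, the KO log2 fold change of Pparg was -0.69 ± 0.24 (SE, adjusted p = 0.22, and 0.025 by limma with sample weights), the WT value was 0.53, and the 2 effects differed by -1.22 on the log2 scale (adjusted p = 0.0242).

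None of the 7 genes that the study used as exemplars of PPARγ action passed the test for Pio in the KO livers. They are Cfd (the adipocyte protease adipsin), Fabp4 (a fatty acid binding protein), Plin4 and Cidec (lipid droplet coat proteins), Mogat1 (an acyltransferase of triglyceride synthesis), Cd36 (a fatty acid translocase) and Cav1 (the structural protein of caveolae). Of the 7, 0 had an unadjusted p under 0.05 (edgeR) and 0 were called by DESeq2 or limma with sample weights. Their median log2 fold change was -0.23 in KO livers against 2.37 in WT livers, where each of the 7 was called higher. Since the study chose these genes as known PPARγ targets and showed them on these mice, their direction is not independent evidence.

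Cfd had the largest of these responses in WT livers and was low in all KO livers. Cfd was at 0.992, 1.33, 0.38, 0 and 0.279 CPM in the KO control mice and 0.0826, 0.216, 0.0813 and 0.304 CPM in the KO Pio mice. In WT livers it went from 1.73 ± 1.27 to 208 ± 145 CPM (SD, n = 5 each). Plin4 was at 5.36, 6.28, 8.95, 11.8 and 8.43 CPM without and 3.39, 7.47, 6.71 and 4.72 CPM with Pio in KO livers, and at 19 ± 2.7 and 85.2 ± 20.7 CPM in WT livers. The KO and WT effects differed by -8.65 for Cfd, -2.71 for Plin4, -2.83 for Mogat1, -2.58 for Cidec, -1.72 for Cd36 and -1.59 for Cav1 on the log2 scale, all called, and by -2.37 for Fabp4 (adjusted p = 0.0783). Among the KO Pio mice, mouse 12 held the highest Fabp4, Cd36 and Cidec levels.

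**Figure D1:**
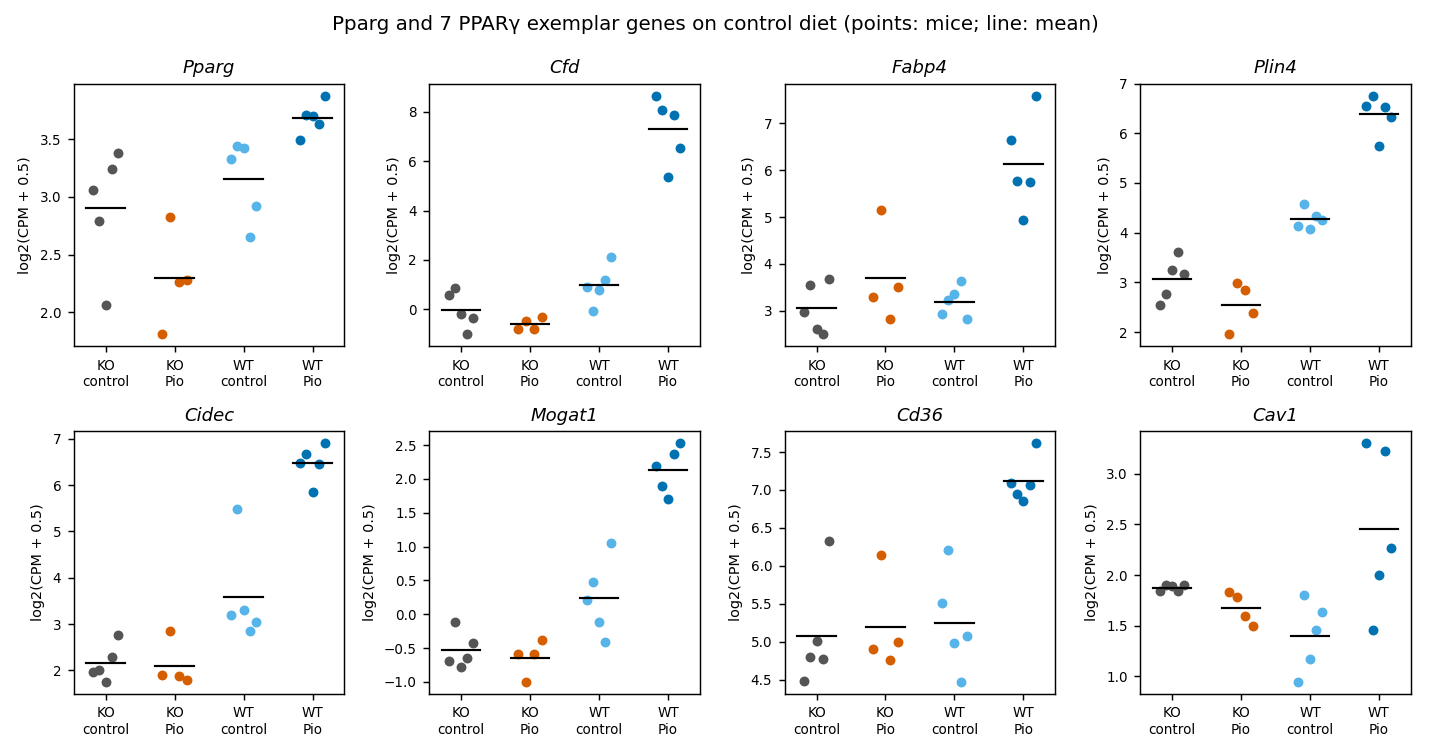
Levels of Pparg and the 7 exemplar genes in each mouse on control diet, as log2(CPM + 0.5), by genotype and treatment, with a line at the mean of each group. The WT Pio mice lie above the other 3 groups for all but Fabp4 and Cav1, while the KO groups with and without Pio overlap for 7 of the 8 genes shown, with Cav1 slightly lower in all 4 KO Pio mice.

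Across all genes, 72 of 13032 tested (0.552%) changed with Pio in the KO livers at an adjusted p of at most 0.05. Of these, 41 (0.315%) rose and 31 (0.238%) fell. The test was the quasi-likelihood test of edgeR, fitted over 39 mice and adjusted by Benjamini-Hochberg, and the adjusted p of the 72 ran from 0.0036 to 0.0489. In 59 of the 72 the highest mouse of one group lay below the lowest of the other, 31 higher and 28 lower with Pio, against 396 (3.04%) higher and 513 (3.94%) lower among all genes tested. At an unadjusted p under 0.05, 691 genes (5.3%) were higher and 682 (5.23%) lower, out of 1373 in all. For a gene without overlap, the exact two-sided permutation test over all splits of the 9 mice gave 0.0159, the smallest p that it can give.

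The count rested on few mice. Left out one at a time, control mouse 1 gave 16 called genes, control mouse 3 gave 30, control mouse 4 gave 11, Pio mouse 11 gave 18, Pio mouse 12 gave 15 and Pio mouse 15 gave 6, whereas control mice 2 and 5 and Pio mouse 14 gave 79, 92 and 74. All 72 genes kept their direction in each of these 9 fits. DESeq2 called 178 genes and limma with sample weights 1203, and both included all 72. Of the 72, 36 overlap another annotated gene, among them Pnpla3, G6pdx and Noct, and where no strand is stated for the counting, reads of the stretch that 2 genes share cannot be told apart. The call of Pnpla5, Dnajb4, Gstm4 and 4732419C18Rik held without any one of the 9 mice. In the edgeR fit of the 9 mice alone, Pnpla5 (adjusted p = 0.0941) and 4732419C18Rik (adjusted p = 0.0704) lost it. Dnajb4 and Gstm4 kept it in every alternative fit. For most of the other called genes described below the mice whose removal ended the call are given with the adjusted p reached. Over all 48 alternatives, which include leaving out each mouse of the other groups, the call was lost in 34 for Pigr and Egln3, 33 for P4hb, 30 for Zfpm1, 29 for Pdia3, 24 for Hsph1 and 20 for Tnfaip2.

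Several of the genes that rose most belong to fat synthesis and lipid handling. The wider list of lipid droplet coat, lipase and fatty acid handling genes had no common direction. Of its 23 tested genes, 12 were above 0 and 11 below, with a median log2 fold change of 0.04. In that list 1 gene was called, beside 0.552% over all genes. At an unadjusted p under 0.05, 3 were higher and 1 lower, beside 5.3% and 5.23%. Fabp5, a fatty acid binding protein of skin, fat and macrophages, was at 9.88, 12.1, 6.46, 6.08 and 5.33 CPM in control mice 1 to 5 and at 123, 94.7, 28.3 and 109.6 CPM in Pio mice 11, 12, 14 and 15. It was 11.1-fold higher with Pio (log2 fold change 3.48 ± 0.69 SE, adjusted p = 0.0196). Every Pio mouse lay above every control, with mouse 14 the lowest of the 4. The gene lies at chr3:10012548-10016607 (GRCm38). Pnpla3, a lipid droplet lipase and transacylase whose mRNA follows SREBP1c and carbohydrate intake, was at 4.17, 11.8, 1.39, 0.771 and 0.488 CPM without and 40.5, 61.3, 11.5 and 28.6 CPM with Pio. It rose by 3.24 on the log2 scale (9.43-fold higher, SE 0.70, adjusted p = 0.0245), although control mouse 2 just overlapped Pio mouse 14. Pnpla3 lies at chr15:84167837-84187236, beside Pnpla5 at chr15:84112356-84123175. Pnpla5, another lipase of the same family, had fewer reads, with 0.318, 1.07, 0.0844, 0 and 0 CPM in the controls and 5.49, 4.74, 1.3 and 5.13 CPM with Pio, and rose as well (log2 fold change 3.78 ± 0.69 SE, adjusted p = 0.00907). It was named after its values were seen, as were Fads1, Acacb, Hmgcs1, Sqle and Insig1 below.

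G6pdx, the X-linked glucose-6-phosphate dehydrogenase that supplies NADPH for fat synthesis, rose 4.41-fold (log2 fold change 2.14 ± 0.44 SE, adjusted p = 0.0196). Its level was 7.22, 7.81, 6.67, 5.03 and 7.11 CPM in the controls, a narrow range, and 51.6, 23.7, 13.7 and 30.7 CPM with Pio. It was the only called member of the NRF2 antioxidant list, of which 18 genes were tested, beside 0.552% called over all genes. The Fabp5 call ended without control mouse 4 or Pio mouse 15 (adjusted p 0.0572 to 0.0657). That of G6pdx ended without control mice 1 or 4 or Pio mice 11 or 15 (just above 0.05 to 0.0991), and that of Pnpla3 without control mice 1, 3 or 4 or Pio mice 11, 12 or 15 (0.0572 to 0.103).

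Over the fatty acid synthesis list, 22 genes were tested and 1, Pnpla3, was called, beside 0.552% over all genes. The list held 12 members with an unadjusted p under 0.05, all higher, beside 5.3% higher over all genes. It held 19 with a log2 fold change above 0 and a median of 0.67, against a median of -0.01 over all genes tested. Scd1, the desaturase that makes oleic acid and an abundant liver mRNA, was at 18636, 20383, 15001, 2402 and 4227 CPM in the controls and 51018, 31880.3, 35609.7 and 42017 CPM with Pio. The groups did not overlap, yet the difference did not pass the test (log2 fold change 1.73 ± 0.53 SE, adjusted p = 0.148). Fasn, fatty acid synthase, was at 1362, 2205, 1418, 271 and 213 CPM and 3407, 1924, 1549 and 2304 CPM (log2 fold change 1.07 ± 0.49, adjusted p = 0.422). Acacb, an acetyl-CoA carboxylase, had a log2 fold change of 1.61 ± 0.46 (adjusted p = 0.102), and Fads1, a desaturase of polyunsaturated fatty acids, one of 0.72 ± 0.18 (adjusted p = 0.0522).

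The controls themselves differed widely in these genes. Control mice 4 and 5 were at 271 and 213 CPM for Fasn, whereas control mice 1, 2 and 3 were at 1362, 2205 and 1418 CPM, and they were also the lowest 2 controls for Scd1, Acacb, Pnpla3 and Pnpla5. DESeq2 called 6 of the 22 genes, limma with sample weights 8, and a fit with mouse 13 included 7. In the 9 mice alone and with no filter on low counts, 0 were called. The same held without control mice 1, 3 or 4 or Pio mice 11, 12 or 15. The count at an unadjusted p under 0.05 ran from 8 to 15 when 1 of the 9 mice was left out (edgeR).

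**Figure D2:**
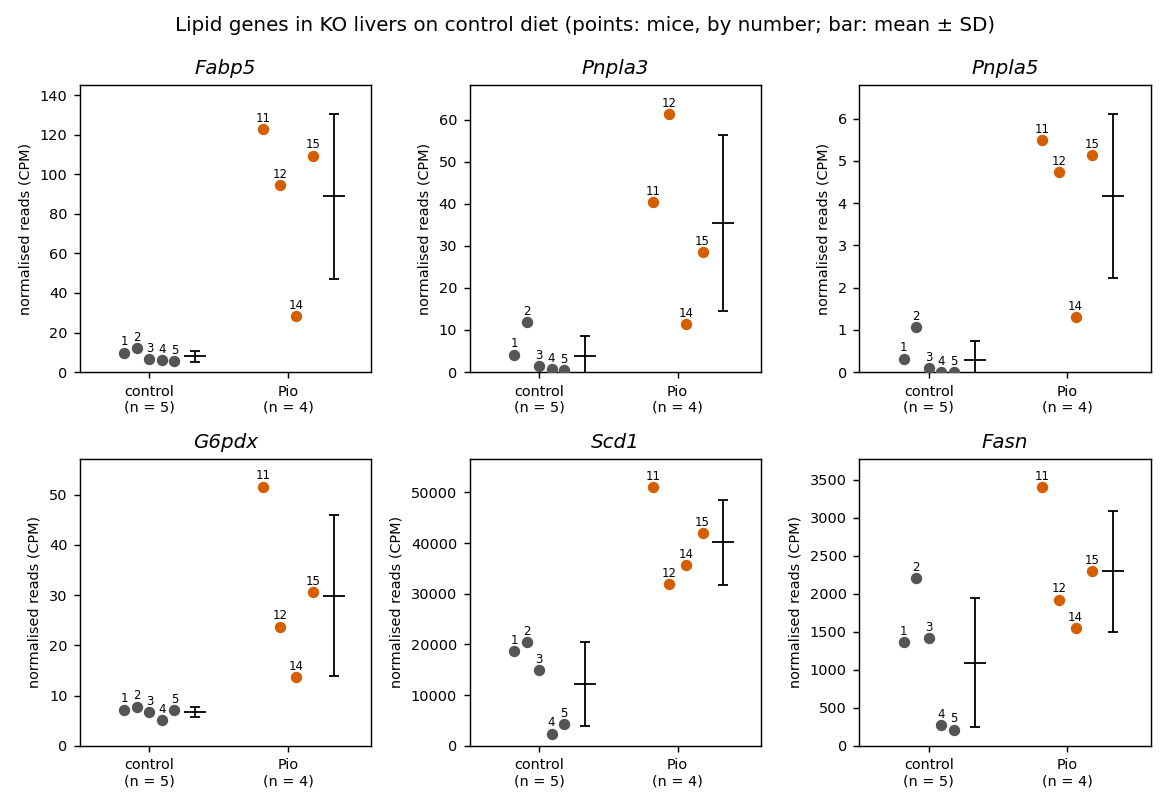
Normalised reads (CPM, linear axes starting at 0) of 6 lipid genes in each KO mouse on control diet, labelled by mouse number, with the mean and SD of each group beside the points. Fabp5, G6pdx, Pnpla5 and Scd1 show no overlap between the groups, Pnpla3 and Fasn overlap through control mouse 2, and control mice 4 and 5 are the lowest controls for Scd1 and Fasn.

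Cholesterol synthesis genes leaned the same way, without a call. All 20 members tested had a log2 fold change above 0, with a median of 0.75. An unadjusted p under 0.05 was reached by 11, beside 5.3% higher over all genes. However, 0 of the 20 were called by edgeR, 2 by DESeq2 and 9 by limma with sample weights. The count at an unadjusted p under 0.05 ran from 8 to 19 when 1 of the 9 mice was left out. Hmgcs1, an early enzyme of the pathway, was at 132, 167, 259, 104 and 58.4 CPM without and 383, 385, 142 and 225 CPM with Pio. Sqle, squalene epoxidase, was at 31.2, 36.1, 80.2, 13.5 and 7.67 CPM and 112, 146, 56.3 and 59.7 CPM. In both genes control mouse 5 was the lowest and control mouse 3 the highest of the controls, so that the groups overlapped. Sc5d, a late desaturase, had a log2 fold change of 0.72 ± 0.24 (adjusted p = 0.191). Of the 15 sterol sensing and uptake genes tested, 0 were called and 3 had an unadjusted p under 0.05, all higher, beside 5.3% over all genes. Insig1, which holds SREBP in the ER, was among these, at 99.4 to 194 CPM in the controls and 204 to 457 CPM with Pio (adjusted p = 0.0888).

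The genes that fell included a group of ER chaperones. They fold secreted proteins in its lumen, and their mRNAs are raised by the unfolded protein response through ATF6 and XBP1, which act on the ER stress response element of the promoter. This element is a CCAAT box and a CCACG box 9 free bases apart, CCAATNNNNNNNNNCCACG, and it was searched on both strands of the window from 250 bases before to 50 bases after each start site (RefSeq, GRCm38.p6). It was found in 37 of 27025 genes (0.137%) and in 9 of the 27 genes of the ER stress list that had a window (33.3%). The 250 bases before the start site are printed for Calr, Hsp90b1 and Hspa5 of this list and for Derl3, which the list does not hold, 5′ to 3′ on the transcript strand with the element in capitals, because they show the sequence that these genes share. They lie at chr8:84846932-84847181 (minus strand, Calr), chr10:86705445-86705694 (minus strand, Hsp90b1), chr10:75893148-75893397 (plus strand, Derl3) and chr2:34771840-34772089 (plus strand, Hspa5).
Calr: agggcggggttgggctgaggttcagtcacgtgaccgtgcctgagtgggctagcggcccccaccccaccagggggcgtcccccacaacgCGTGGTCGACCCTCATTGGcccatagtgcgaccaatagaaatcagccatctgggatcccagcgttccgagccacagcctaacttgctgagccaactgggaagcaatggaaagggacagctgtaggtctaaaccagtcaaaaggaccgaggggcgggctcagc
Hsp90b1: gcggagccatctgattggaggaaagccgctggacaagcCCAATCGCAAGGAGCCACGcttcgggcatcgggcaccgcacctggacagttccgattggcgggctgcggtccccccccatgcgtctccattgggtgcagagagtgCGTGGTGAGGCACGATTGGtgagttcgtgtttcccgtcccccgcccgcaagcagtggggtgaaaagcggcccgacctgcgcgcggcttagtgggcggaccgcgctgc
Derl3: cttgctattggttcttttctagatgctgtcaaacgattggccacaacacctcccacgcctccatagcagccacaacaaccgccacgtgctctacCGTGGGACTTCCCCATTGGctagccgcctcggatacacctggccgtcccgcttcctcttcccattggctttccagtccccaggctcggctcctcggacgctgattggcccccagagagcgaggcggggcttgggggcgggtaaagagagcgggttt
Hspa5: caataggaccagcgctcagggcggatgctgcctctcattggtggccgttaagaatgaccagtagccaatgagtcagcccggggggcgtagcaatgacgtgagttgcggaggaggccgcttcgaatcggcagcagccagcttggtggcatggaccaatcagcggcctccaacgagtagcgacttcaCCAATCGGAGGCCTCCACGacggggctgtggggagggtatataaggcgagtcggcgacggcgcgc
The element began 162 bases before the start site in Calr, 212 and 107 bases before it in Hsp90b1, which holds 2 copies, 156 bases before it in Derl3 and 65 bases before it in Hspa5. In Calr, Derl3 and the nearer copy of Hsp90b1 it stood as its reverse complement.

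All 4 of these genes were lower in every Pio mouse than in every control. They were picked among the 19 tested genes with the element, with earlier results known, so their separation does not stand for all 19. The whole set is described below. Calr, calreticulin, a calcium-binding lectin chaperone, was at 1036, 905, 1137, 1410.4 and 1038 CPM in control mice 1 to 5 and 704, 710.5, 766 and 595 CPM in Pio mice 11, 12, 14 and 15. It fell 1.59-fold (log2 fold change -0.67 ± 0.14 SE, adjusted p = 0.0209). Hsp90b1, the ER form of HSP90, was at 765, 634, 843, 1128 and 793 CPM and 521, 542, 568 and 461 CPM and fell by nearly the same amount (log2 fold change -0.67 ± 0.15 SE, adjusted p = 0.0303). Control mouse 4 was the highest control for both. Derl3, a channel component of ER-associated degradation, was at 5.64, 3.12, 8.99, 31.2 and 8.89 CPM and 0.413, 1.51, 2.64 and 1.1 CPM. It was 8.11-fold lower (log2 fold change -3.02 ± 0.72 SE, adjusted p = 0.0461), and its control range was wide because of mouse 4. Hspa5, or BiP, the main chaperone and sensor of the response, was at 989, 873, 1262, 1494 and 1103 CPM and 558, 830.3, 771 and 497 CPM but did not pass the test (log2 fold change -0.79 ± 0.23 SE, adjusted p = 0.12). Hspa5, Pdia3, P4hb and Creld2 were named after their values were seen.

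Other chaperones and isomerases of the ER lumen were lower too. Hyou1, an ER chaperone of the HSP110 family, was at 356, 294, 431, 509 and 337 CPM in the controls and 168, 236, 259 and 144 CPM with Pio (log2 fold change -0.93 ± 0.22 SE, adjusted p = 0.0372). Pdia4, a protein disulfide isomerase, was at 281, 238, 368, 446 and 294 CPM and 172, 212, 220.3 and 159 CPM (log2 fold change -0.77 ± 0.17 SE, adjusted p = 0.0309). In both genes Pio mice 11 and 15 were the lowest of the 9. Pdia3, the isomerase that works with calreticulin, fell (log2 fold change -0.56 ± 0.14 SE, adjusted p = 0.0468), and P4hb, the most abundant of the isomerases here at 1281 to 1623 CPM in the controls and 954 to 1172 CPM with Pio, fell (log2 fold change -0.48 ± 0.12 SE, adjusted p = 0.0481). Creld2, a further ER chaperone whose window holds the element, was at 33 to 97.2 CPM and 15.4 to 34.3 CPM (log2 fold change -1.35 ± 0.35, adjusted p = 0.0742).

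Of the 30 genes of the ER stress list, all tested, 5 were called and all 5 fell, beside 0.238% called lower over all genes. A total of 17 had an unadjusted p under 0.05, all lower, beside 5.23% over all genes. The median log2 fold change was -0.53, 28 of the 30 were below 0 and 11 were lower without overlap, beside 3.94% over all genes. The number called was 12 in a fit of the 19 KO mice alone, 12 by DESeq2, 18 by limma with sample weights, 10 with mouse 13 included, 0 in the 9 mice alone and 0 with no filter on low counts. The calls of Hsp90b1, Pdia4, Hyou1, Pdia3 and Derl3 each ended without control mice 1, 3 or 4 or Pio mice 11, 12 or 15, with adjusted p up to 0.228. The call of Calr ended without control mouse 4 or Pio mice 11, 12 or 15 (0.071 to 0.115), and that of P4hb without any mouse but control mouse 2 (0.0675 to 0.18). The count at an unadjusted p under 0.05 stayed at 16 to 18 without any one of the 9 mice.

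Taken over all genes with the element, of which 19 were tested, 13 had a log2 fold change below 0, the median was -0.50, 9 had an unadjusted p under 0.05 and were lower, 1 was higher and 3 were called. Over the 10162 tested genes with a window, the median was -0.01, 508 were lower and 540 higher at an unadjusted p under 0.05, and 56 were called. The 9 that were lower were Calr, Creld2, Derl3, Dnajc3, Ero1lb, Hsp90b1, Hspa5, Pdia6 and Syvn1, and the 1 that was higher was Acacb. Of these 9, 8 are members of the ER stress list, so that the values largely repeat those of the list, and of the other carriers Adcy3, Pan2, Spats2l, Xlr3a and Zfp57 were above 0 as well. A match of letters is a description of the window and not of what binds there.

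**Figure D3:**
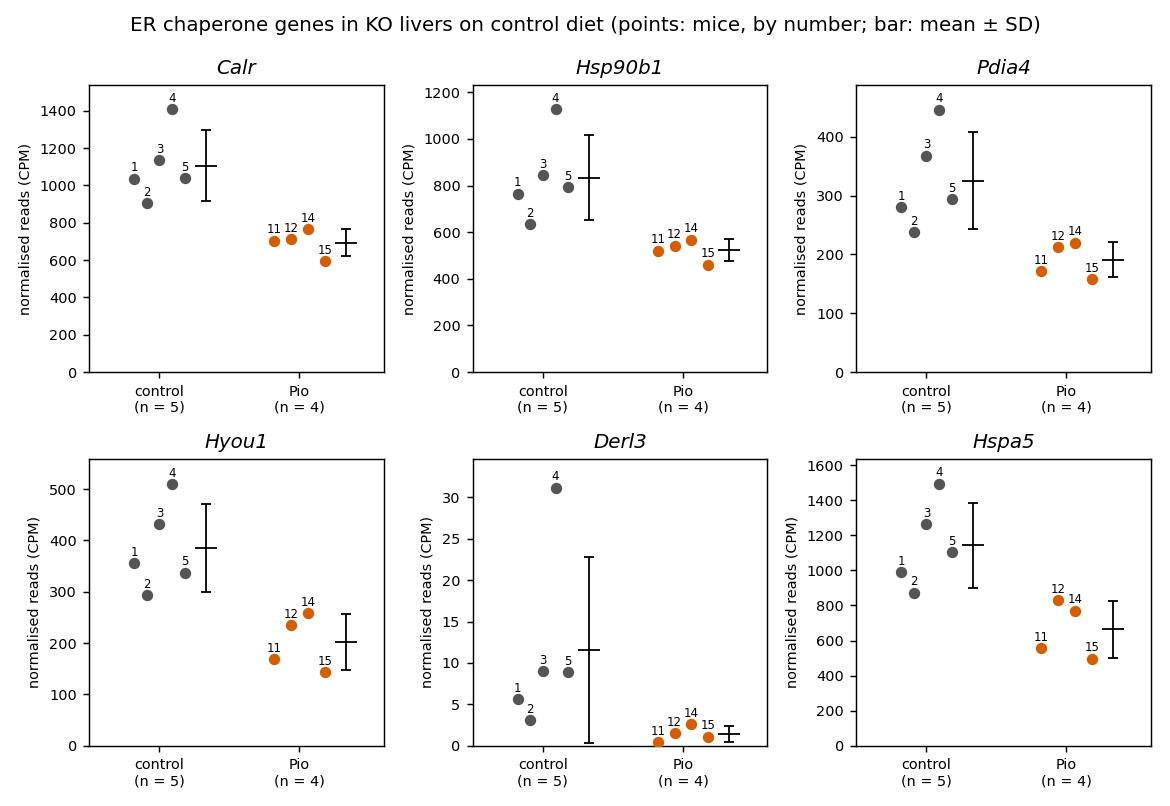
Normalised reads (CPM, linear axes starting at 0) of 6 genes of ER folding and degradation in each KO mouse on control diet, labelled by mouse number, with the mean and SD of each group beside the points. In all 6 genes the 4 Pio mice lie below the 5 controls, and control mouse 4 is the highest control.

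Of the chaperones of the cytosol, which heat shock factors raise through a different promoter element, Dnajb4 and Hsph1 fell. Dnajb4 (chr3:152178511-152210302), a co-chaperone of HSP70, was at 52, 40.9, 53.4, 47.4 and 39.9 CPM in the controls and at 26.6, 25.8, 28.4 and 27.9 CPM with Pio. The Pio values lay within 3 CPM of each other, the fall was 1.72-fold (log2 fold change -0.78 ± 0.12 SE, adjusted p = 0.0036) and it had the lowest adjusted p of all genes tested. Hsph1, the HSP110 nucleotide exchange factor, was at 91.9, 86, 102, 132 and 83.6 CPM and 39.2, 49.4, 72.6 and 41.9 CPM and fell (log2 fold change -0.97 ± 0.23 SE, adjusted p = 0.0461). Its call ended without control mice 1, 3 or 4 or Pio mice 11, 12 or 15 (0.0726 to 0.192). It was the 1 called gene of the 20 on the heat shock list, beside 0.552% called over all genes. Of the 20, 9 had an unadjusted p under 0.05, all lower, beside 5.23% over all genes. A total of 19 were below 0, and 7 were lower without overlap, beside 3.94% over all genes. With a filter of 1 CPM in 5 mice or no filter on low counts, 0 of the list were called. Called lower were 3 by DESeq2, 10 by limma with sample weights, 3 in the 19 KO mice alone and 1 in the 9 mice alone. Hspa1b, the inducible HSP70, was at 11.9, 13.3, 21.5, 19.5 and 12.8 CPM and 3.72, 4.78, 7.24 and 6.01 CPM without passing the test (log2 fold change -1.54 ± 0.45, adjusted p = 0.12), and since it shares nearly all of its sequence with Hspa1a, uniquely aligned reads cover only part of it. Hspa8, the constitutive HSP70, had a log2 fold change of -0.52 ± 0.19 (adjusted p = 0.234). The heat shock element searched, GAANNTTCNNGAA on both strands, was in 4 of 15 heat shock genes with a window and in 0.662% of all genes. Over the 60 tested genes with it, the median log2 fold change was -0.03, 7 were lower and 3 higher at an unadjusted p under 0.05, and 1 was called. The matching counts over the 10162 tested genes with a window were 508, 540 and 56.

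Fos, a subunit of AP-1 that is induced within minutes by growth signals and stress, was at 1.75, 2.97, 2.36, 1.95 and 11.2 CPM in the controls and 44.5, 12.1, 15.5 and 14.9 CPM with Pio. It rose 5.3-fold (log2 fold change 2.41 ± 0.51 SE, adjusted p = 0.021), with Pio mouse 11 far above the other Pio mice and control mouse 5 just below the lowest of them. Nab2, a corepressor of EGR factors, was at 6.03, 7.05, 6.8, 9.75 and 11.7 CPM and 16.9, 25.5, 23.3 and 22.4 CPM and rose (log2 fold change 1.41 ± 0.29 SE, adjusted p = 0.0196). Id3, an inhibitor of bHLH factors and a BMP target, was at 9.33, 13.1, 13.2, 21.4 and 19.9 CPM and 31.9, 30.7, 36.9 and 45.3 CPM and rose (log2 fold change 1.23 ± 0.29 SE, adjusted p = 0.0407). Neither gene showed overlap between the groups, and control mice 4 and 5 were the highest controls in both. Hes1, a repressor downstream of Notch, was at 3.33, 3.92, 3.12, 9.39 and 11.7 CPM and 13, 18.4, 10.8 and 31 CPM and rose (log2 fold change 1.54 ± 0.31 SE, adjusted p = 0.0196), with control mouse 5 above Pio mouse 14. Nr4a2, an orphan nuclear receptor, was at 4.05, 2.48, 1.77, 2.36 and 1.36 CPM and 0.784, 0.503, 0.976 and 1.03 CPM and fell (log2 fold change -1.54 ± 0.34 SE, adjusted p = 0.0303).

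Leaving out single mice ended each of these calls. For Fos they were control mice 1, 3 or 4 or Pio mice 11 or 15, and for Nr4a2 control mice 1 or 4 or Pio mice 11, 12 or 15. For Nab2 they were control mice 1 or 3 or Pio mice 12 or 15, for Hes1 control mice 1 or 3 or Pio mouse 15, and for Id3 every mouse but control mouse 5. The adjusted p reached was at most 0.145 for Fos, 0.137 for Nr4a2, 0.071 for Nab2, 0.139 for Hes1 and 0.153 for Id3.

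The immediate early list as a whole was mixed. Of 29 genes tested, 1 (Fos) rose and 1 (Nr4a2) fell, beside 0.315% and 0.238% over all genes. At an unadjusted p under 0.05, 7 were higher and 3 lower, beside 5.3% and 5.23% over all genes. The median log2 fold change was 0.62. The 7 became 3 without control mouse 1, 4 without control mice 2 or 3, 5 without Pio mouse 11 and 7 to 9 without any other. DESeq2 called 3 higher and 1 lower, limma with sample weights 9 and 3. A further 3 members, named after their values were seen, are transcripts of the same fast response. Ier2 was at 18.1, 19.1, 19.6, 23.4 and 45.5 CPM without and 76.3, 34.8, 35.2 and 56.1 CPM with Pio (adjusted p = 0.0619), Dusp1, a phosphatase of MAP kinases, at 26.3 to 73.7 CPM and 88.9 to 117 CPM (adjusted p = 0.116), and Egr1 at 12.5, 21.9, 15.6, 35.1 and 365 CPM and 454, 159, 123 and 222 CPM (adjusted p = 0.477). Control mouse 5 stood apart from the other controls in Fos, Ier2 and Egr1, at a level within or near that of the Pio mice.

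Control mouse 5 also stood apart in genes of stress and of the clock. Cdkn1a, the p53 target p21, was at 5.44, 13.1, 10.9, 15.4 and 60.2 CPM in the controls and 21.3, 92.8, 32.2 and 30.2 CPM with Pio, and Gdf15, a stress hormone, at 2.9, 4.8, 3.71, 9.3 and 30.9 CPM and 22.3, 26.1, 13.2 and 22.1 CPM. Neither passed the test in KO livers (adjusted p = 0.563 and 0.494). Bbc3, the proapoptotic p53 target PUMA, was at 5.68, 8, 5.53, 5.17 and 9.58 CPM and 16.8, 24, 11.6 and 15.2 CPM and rose (log2 fold change 1.31 ± 0.30 SE, adjusted p = 0.0372). Its call ended without control mice 1, 3 or 4 or Pio mice 11, 12 or 15 (0.0803 to 0.179). It was the 1 called gene of 19 tested p53 targets, beside 0.552% over all genes. Of the 19, 4 were higher and 1 lower at an unadjusted p under 0.05, beside 5.3% and 5.23% over all genes.

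Noct, a gene with a strong daily rhythm in liver, was at 83, 70.3, 81.9, 50.8 and 227 CPM in the controls and 21.5, 37.7, 31.3 and 22.1 CPM with Pio. It fell 3.64-fold (log2 fold change -1.86 ± 0.41 SE, adjusted p = 0.0295), with no overlap, and control mouse 5 was more than 2 times any other control. The call ended without control mice 1 or 5 or Pio mice 11, 12 or 15 (just above 0.05 to 0.116). Noct was the 1 called gene of the 21 on the clock list, beside 0.552% over all genes. Per2, a repressor of the core clock, was at 51.8, 41.3, 54.8, 43.2 and 25 CPM and 15.6, 11.7, 29 and 21.4 CPM (log2 fold change -1.15 ± 0.33, adjusted p = 0.0996), and Arntl, its activator BMAL1, at 4.72, 10.7, 5.74, 5.94 and 11.6 CPM and 19, 20.7, 11.9 and 13 CPM (log2 fold change 1.05 ± 0.32, adjusted p = 0.135). Per2 and Arntl were named after their values were seen. The hour of tissue collection was not recorded in the labels, so its part was not tested.

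Gstm4 and Gstm3, enzymes that conjugate glutathione, rose, and were the 2 called of 48 conjugation enzymes tested, beside 0.552% called over all genes. Gstm4 (chr3:108040408-108044894), a mu-class glutathione S-transferase, was at 33.2, 35.6, 33.3, 29.3 and 30.6 CPM in the controls and 64.9, 64.6, 54.1 and 64.8 CPM with Pio, with little spread in either group. It rose 1.92-fold (log2 fold change 0.94 ± 0.16 SE, adjusted p = 0.00561). Gstm3 (chr3:107963696-107969283), of the same gene cluster, was at 24.3, 31, 31.1, 12.2 and 21.2 CPM and 62.6, 257, 45 and 67 CPM and rose (log2 fold change 2.17 ± 0.49 SE, adjusted p = 0.0309), with Pio mouse 12 nearly 4 times the next. The Gstm3 call ended without control mice 1, 3 or 4 or Pio mice 12 or 15 (0.0514 to 0.345). Gstm1, named after its values were seen and the most abundant of the 3, was at 551 to 875 CPM and 1097 to 1538 CPM (adjusted p = 0.105). The members of this cluster are close in sequence, so reads may be divided among them unevenly. Of the 48 enzymes, 29 were below 0, and 6 were higher and 4 lower at an unadjusted p under 0.05, beside 5.3% higher and 5.23% lower over all genes.

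Csad, the enzyme that makes hypotaurine for taurine synthesis, was at 50.5, 52.1, 42.9, 109 and 86.2 CPM in the controls and 95.2, 206, 256 and 173 CPM with Pio and rose (log2 fold change 1.42 ± 0.33 SE, adjusted p = 0.0371). Control mouse 4 overlapped Pio mouse 11, and the call ended without control mice 1, 2 or 3 or Pio mice 12, 14 or 15 (0.0673 to 0.12). It was the 1 called gene of 26 tested in amino acid, one-carbon and taurine metabolism, beside 0.552% over all genes.

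Genes of oxidation and drug metabolism leaned lower without a call. Of 36 genes of PPARα action and fatty acid oxidation, 0 were called by edgeR or DESeq2 and 2 by limma with sample weights. Of the 36, 12 had an unadjusted p under 0.05, all lower, beside 5.23% over all genes, and the median was -0.30. The 12 became 4 without control mouse 4 or Pio mouse 12, 6 without control mouse 5 or Pio mice 11 or 15, and 9 to 14 without any other of the 9. Of 41 xenobiotic P450 genes, 0 were called by edgeR. At an unadjusted p under 0.05, 11 were lower and 1 higher, beside 5.23% and 5.3% over all genes. Called lower were 2 by DESeq2, 7 by limma with sample weights and 1 in the 19 KO mice alone, and without Pio mouse 12 the 11 became 6. Cyp2e1, the ethanol-metabolizing P450 of cells around the central vein, was at 6288, 4677, 7188, 8994 and 5082 CPM and 3476, 983, 4309 and 3670.2 CPM, without overlap and without passing the test (adjusted p = 0.155). Pio mouse 12 held the lowest Cyp2e1 of the 9.

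The 77 nuclear genes of oxidative phosphorylation lay near 0. None was called and none had an unadjusted p under 0.05 in KO livers by edgeR, the median log2 fold change was -0.02 and the values ran from -0.21 to 0.23. The 7 of 13 mitochondrially encoded mRNAs that were tested had a median of -0.01, and mt-Co1, a cytochrome oxidase subunit, stood at 11978 to 17813 CPM and 10560.1 to 16779 CPM. In WT livers the medians of these lists were 0.16 and 1.19.

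**Figure D4:**
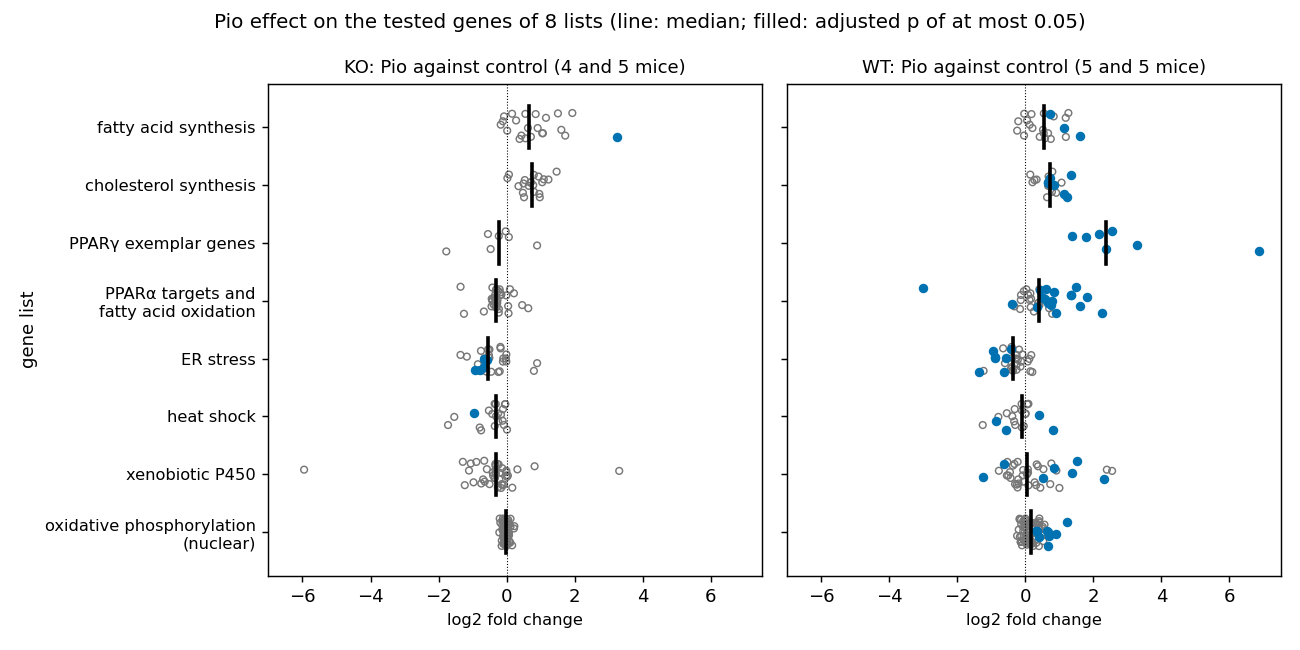
Log2 fold change with Pio on control diet of each tested gene in 8 lists, in KO livers (left) and WT livers (right), with a line at the list's median and filled points for genes with an adjusted p of at most 0.05. Fatty acid and cholesterol synthesis lie above 0 and ER stress below 0 in both genotypes, whereas the 7 exemplar genes and PPARα targets have medians of -0.23 and -0.30 in KO livers and 2.37 and 0.41 in WT livers.

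The remaining lists held few calls. Pik3r1, the regulatory subunit of PI3-kinase in insulin signalling, was at 156, 133, 141, 130.1 and 101 CPM in the controls and 83.7, 68.5, 98.7 and 75.3 CPM with Pio and fell (log2 fold change -0.70 ± 0.14 SE, adjusted p = 0.0196). Egln3, an oxygen-sensing prolyl hydroxylase, was at 27, 25.4, 22, 16.9 and 15.2 CPM and 12.7, 8.23, 13.9 and 13.7 CPM and fell (log2 fold change -0.81 ± 0.20 SE, adjusted p = 0.0481). Pigr, the transporter of polymeric immunoglobulin into bile, was at 2216, 1783, 2123, 2543 and 2042 CPM and 1420.2, 1015, 1459 and 1336 CPM and fell (log2 fold change -0.71 ± 0.18 SE, adjusted p = 0.0489). In both Egln3 and Pigr, Pio mouse 12 was the lowest of the 9. Ces1b, a carboxylesterase, was at 44.1, 43.4, 47.1, 52.1 and 54.9 CPM and 31.3, 29.5, 30.3 and 32 CPM and fell (log2 fold change -0.65 ± 0.16 SE, adjusted p = 0.0454). Tnfaip2, a gene induced by TNF, was at 13.1, 19.5, 11.3, 9.3 and 15.1 CPM and 24.3, 28.1, 20.2 and 29.8 CPM and rose (log2 fold change 0.90 ± 0.22 SE, adjusted p = 0.0468). None of these 5 showed overlap between the groups. Each was the 1 called gene of its list, beside 0.552% called over all genes. The lists held 23 tested genes of glucose and insulin, 16 of hypoxia, 16 of the periportal zone, 13 carboxylesterases and 24 of NF-kB. The calls ended without 5 of the 9 mice in turn for Pik3r1 (control mice 1 and 4, Pio mice 11, 12 and 15, adjusted p up to 0.0898) and without 6 for Tnfaip2 (control mice 1, 3 and 4, Pio mice 11, 12 and 15, up to 0.187). They ended without any but control mouse 5 for Egln3 (up to 0.234) and without any but control mouse 2 for Pigr and Ces1b (up to 0.228 and 0.141).

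Other genes with large changes have mixed functions. Inhbc, the liver inhibin subunit of activin C, was at 110.0, 95.6, 90.4, 128 and 97.5 CPM in the controls and 45.9, 45.1, 70.3 and 45.6 CPM with Pio and fell (log2 fold change -1.01 ± 0.18 SE, adjusted p = 0.0071), a call that ended only without Pio mouse 15 (0.0544). Itih5, a hyaluronan-associated inhibitor chain, was at 23.8, 21.5, 18.3, 15.5 and 18.1 CPM and 43.1, 30.3, 43.4 and 38.2 CPM and rose (log2 fold change 0.99 ± 0.20 SE, adjusted p = 0.0196). Both genes had non-overlapping groups. Atg16l2, an autophagy gene, rose from 13.2 ± 3.24 to 29.9 ± 6.25 CPM (SD, n = 5 and 4), Prss8, a membrane protease, from 3.59 ± 1.27 to 8.54 ± 3.17 CPM, and Gramd4 from 5.84 ± 1.02 to 11.2 ± 2.37 CPM. The uncharacterised 4732419C18Rik rose from 5.09 ± 1.5 to 11.2 ± 2.74 CPM (adjusted p = 0.00561). Adh7, an alcohol dehydrogenase, fell from 29.9 ± 6.5 to 17.2 ± 2.8 CPM, Ctcfl, a paralogue of CTCF, from 8.54 ± 1.72 to 4.34 ± 0.163 CPM, and the non-coding Gm15638 from 11.4 ± 3.31 to 4.84 ± 0.893 CPM. In all of these the 4 Pio mice lay beyond the 5 controls, which the rule for naming genes by size required.

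Among these, the calls of Itih5 ended without control mouse 4 or Pio mice 11 or 15, of Gramd4 without control mouse 4 or Pio mice 12 or 15, and of Ctcfl and Gm15638 without control mice 1 or 4 or Pio mice 11, 12 or 15, with adjusted p of at most 0.0803. Those of Atg16l2 and Prss8 ended without control mice 1, 3, 4 or 5 or Pio mice 11, 12 or 15, and that of Adh7 without control mice 1, 3 or 4 or any Pio mouse, with adjusted p of at most 0.228.

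Set beside WT livers, the 72 genes had no common direction. In WT livers, 1988 of the 13032 genes (15.3%) were called for Pio. Of the 72, 37 had the same sign in WT and 35 the opposite, and 17 were called in both genotypes, which is 23.6% of the KO calls and 0.855% of the WT calls. In 9 of the 17 the directions were the same and in 8 they were opposite. The difference between the KO and WT effects was called for 721 genes (5.53%) and for 39 of the 72, of which 25 had risen and 14 had fallen in KO livers. The 72 were chosen on the KO effect, which is itself part of this difference. A larger share among them therefore follows in part from the choice and is not separate evidence.

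Gstm3 showed the widest of these differences. It rose in KO livers as given above and fell in WT livers, from 230.2 ± 222 to 56.4 ± 27.7 CPM (log2 fold change -2.03, adjusted p = 0.00355), with a difference of 4.20 (adjusted p = 0.000478). Tnfaip2 likewise rose in KO and fell in WT livers, from 29.5 ± 10.3 to 16.4 ± 3.36 CPM (difference 1.75, adjusted p = 0.000692). The difference was 3.02 for Fos, 2.24 for Csad, 2.14 for Hes1, 1.94 for Id3, -2.12 for Nr4a2 and -0.91 for Pik3r1, each called. Calr, Pdia4, Hyou1, Derl3, Fabp5, Pnpla3, Pnpla5 and G6pdx were not called for a difference, while Hsp90b1 (-0.78) and Dnajb4 (-0.60) were. Derl3 fell in WT livers as well, from 6.25 ± 2.83 to 1.6 ± 0.711 CPM (adjusted p = 0.0353), and so did Ces1b, from 46.4 ± 8.44 to 29.9 ± 7.41 CPM (adjusted p = 0.00342).

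Other differences were those of genes not called in KO livers alone. Cyp7a1, the rate-limiting enzyme of bile acid synthesis, was at 121, 57.3, 282, 63.3 and 140.5 CPM in the KO controls and 58.7, 80.6, 38.8 and 38 CPM with Pio, without passing the test (log2 fold change -1.30 ± 0.43, adjusted p = 0.178). In WT livers it rose from 10.8 ± 4.62 to 53.1 ± 17.7 CPM, and the difference was -3.61 (adjusted p = 0.000547). Cyp2b9, a female-biased P450, was at 0.318, 1.14, 48.2, 2.4 and 1.12 CPM and 0.206, 0.0719, 0.366 and 0.038 CPM in KO livers, where control mouse 3 alone set the mean (difference -8.35, adjusted p = 0.0158). Of genes averaging 5 CPM or more, the other large negative differences were those of A4gnt (-3.46), Lrtm1 (-3.37) and Aqp4, a water channel (-2.98). The large positive ones, beside Gstm3 and Fos, were those of Dhrs9, a retinol dehydrogenase (3.12), Cdkn1a (2.83) and Gdf15 (2.77). None of these 6 was called in KO livers alone.

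**Figure D5:**
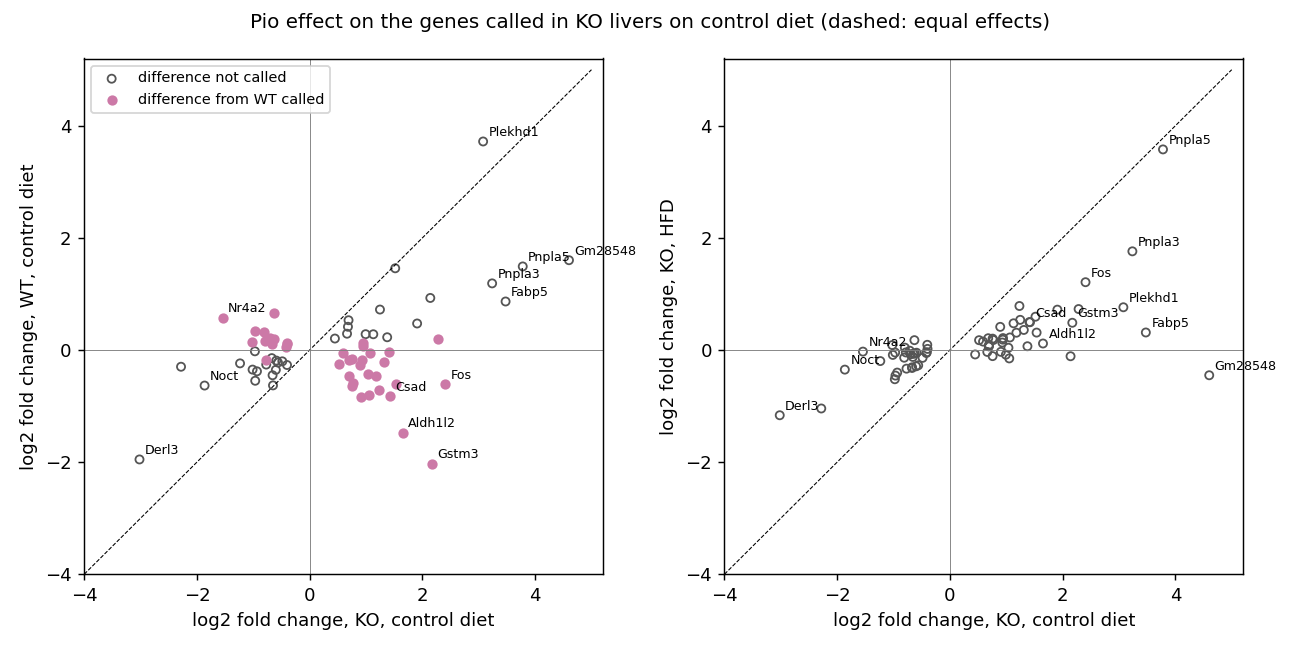
Log2 fold change with Pio of the 72 genes called in KO livers on control diet (horizontal axes), against that in WT livers on control diet (left) and in KO livers on HFD (right), with a dashed line where effects are equal. Filled points mark the 39 genes called for the difference from WT. On the left 37 of 72 lie on the same side of 0 on both axes, and on the right 59 of 72 do, most of them nearer to 0 on HFD. The genes were chosen by the test on the horizontal axes, which favours large values there.

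On HFD, Pio left no called gene in KO livers (0 of 13032, or 0%, by edgeR, 9 by DESeq2 and 0 by limma with sample weights, with 215 at an unadjusted p under 0.05). The 72 genes were called in KO livers on control diet from other mice, so their HFD values are a separate measurement. Of the 41 that rose, 33 were above 0 on HFD, with a median log2 fold change of 0.21 beside 1.13 on control diet, and of the 31 that fell, 26 were below 0, with a median of -0.09 beside -0.71. The control-diet medians are those of genes chosen for passing the test on that diet, which favours large values. Smaller values in other mice can follow from this choice alone, so these medians cannot show a part of diet. Pnpla5 and Pnpla3 kept the largest values on HFD, 3.58 and 1.76, while Fabp5 was at 0.31 and G6pdx at -0.11. No gene was called for a difference between the 2 diets by edgeR (0 of 13032, 618 at an unadjusted p under 0.05, 0 by DESeq2 and 33 by limma with sample weights).

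Of the list medians, 6 that were nearer to 0 on HFD than on control diet in KO livers are given here first. Cholesterol synthesis had a median of 0.75 on control diet and -0.01 on HFD, fatty acid synthesis 0.67 and 0.34, ER stress -0.53 and -0.20, and heat shock -0.31 and -0.16. PPARα targets had -0.30 and 0.07 and immediate early genes 0.62 and 0.35. Others lay farther from 0 on HFD, with -0.04 and -0.84 for acute-phase proteins, -0.02 and 0.14 for oxidative phosphorylation and 0.55 and -2.58 for 5 neutrophil markers. These are descriptions, since no gene was called for the difference. KO HFD mouse 9 had the lowest median correlation of the 19 KO libraries kept, at 0.952. Without it, 174 genes had an unadjusted p under 0.05 for Pio on HFD and 467 for the difference between the diets (edgeR). Its part in the HFD medians was not tested.

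Of the markers of 11 cell types, 0 were called by edgeR or DESeq2 and 1, of adipocytes, by limma with sample weights, and at an unadjusted p under 0.05 1 erythroid gene was higher and 1 cholangiocyte gene lower. No counted marker of the 11 cell types was at 0 in all 9 mice except 2 of 7 in skeletal muscle and 1 of 11 in pancreatic acinar cells. The summed levels in control and Pio mice were 404 to 867 and 519 to 711 CPM for macrophages and Kupffer cells (12 of 12 genes tested), 351 to 556 and 339 to 517 CPM for stellate cells (12 of 12), and 433 to 544 and 502 to 601 CPM for sinusoidal endothelium (11 of 11). Adipocyte markers summed to 34.4 to 78.6 and 49.7 to 111.1 CPM and erythroid markers to 148 to 267 and 198 to 514 CPM. Skeletal muscle markers were at most 0.862 CPM in sum. The neutrophil sum was the 1 that did not overlap, at 9.12 to 10.9 CPM in the controls and 11.2 to 16.4 CPM with Pio, and S100a9, a neutrophil calprotectin subunit, was at 2.98, 2.7, 2.91, 2.9 and 3.21 and 3.88, 5.5, 5.37 and 5.25 CPM (adjusted p = 0.866). Fewer cells of a type and less RNA per cell cannot be told apart in bulk liver, and the part of these sums in the results above was not tested.

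Mouse 13, the Pio mouse left out, lay on the Pio side of the control mean for 54 of the 72 genes and beyond all 5 controls in the direction of the call for 48 (27 higher, 21 lower), but within the range of the other 4 Pio mice for 15. Its Fabp5 was at 7.59 CPM, its Calr at 848 CPM, its Gstm4 at 13.8 CPM and its Fos at 36.4 CPM. With it in the fit, 1256 genes were called, 1090 of them higher. Zfpm1, a cofactor of GATA factors named after its values were seen, was at 95.9, 94, 88.5, 96.8 and 80.7 CPM in the controls and 58.5, 58.6, 55.7 and 58.4 CPM in the other 4 Pio mice, which gave a fall (log2 fold change -0.66 ± 0.16 SE, adjusted p = 0.0489), but at 693 CPM in mouse 13, and its log2 fold change turned to 1.03 with that mouse included. Without mouse 13 its call ended on leaving out any of the 9 mice but control mouse 5 (0.0731 to 0.146).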

How the data were processed

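Liver RNA of 40 mice was sequenced after poly-A selection with random-hexamer priming. The authors aligned reads with STAR 2.0.4b to the Ensembl 76 annotation of GRCm38 and deposited raw counts per gene from featureCounts 1.4.5, with no normalization, in a KO table and a WT table. Columns other than counts were not used. Repeated lines of a gene (598 and 574, identical) were dropped, 355 rRNA genes were removed, and the 13032 of 40239 genes that reached 1 CPM in 4 or more of 39 mice were tested. Totals were 21542958 to 27183558 counts in the 9 mice, and counts carry counting error beside the spread between mice. edgeR 4.0.16 (R 4.3.3) scaled counts by TMM and fitted 8 groups by robust quasi-likelihood, KO Pio mouse 13 left out, with Benjamini-Hochberg adjustment over all tested genes and calls at an adjusted p of 0.05. Contrasts were Pio in KO mice on control diet, the same in WT mice and in KO mice on HFD, and the 2 differences. SE is the log2 fold change over the root of F. Exact permutation tests used log2(CPM + 0.5). The fit was tested on simulated data. Named genes were the 7 exemplars and Pparg, up to 12 called genes each way by log2 fold change with a mean of at least 5 CPM and no overlap, up to 4 called members of each list or else its 2 most abundant, and 5 genes each way with the largest called KO and WT difference, while others are said to be chosen after their values were seen. Some genes that meet this rule are not reported here. Genes and lists were chosen with earlier results of these data known. Alternatives were DESeq2 1.42.0, limma 3.58.1 with sample weights (the fit named in the study's methods), RLE scaling, other filters, KO mice or the 9 mice alone, mouse 13 included and each mouse left out.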

Additional observations from a re-analysis of the deposited data

Results flagged for a closer look

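Of 158 groups checked, each being the 4 KO Pio or 5 KO control mice for 1 named gene, 25 held a mouse far from the others of its group by Dixon's test at the 95% level, which chance passes in about 1 in 20 groups. Control mouse 5 stood apart in 9 genes, at 19.4 CPM for Aqp4, 98.5 CPM for Ccnd1, 79.6 CPM for Cd36, 60.2 CPM for Cdkn1a, 365 CPM for Egr1, 11.2 CPM for Fos, 30.9 CPM for Gdf15, 45.5 CPM for Ier2 and 227 CPM for Noct, each time above the other controls. Pio mouse 12 stood apart in 7 genes, at 8.08 CPM for A4gnt, 70.1 CPM for Cd36, 92.8 CPM for Cdkn1a, 6.68 CPM for Cidec, 35.2 CPM for Fabp4, 257 CPM for Gstm3 and 10560.1 CPM for mt-Co1, the last being the low one. Control mouse 3 was high at 88596 CPM for Alb and 48.2 CPM for Cyp2b9, and control mouse 4 at 31.2 CPM for Derl3 and 326 CPM for Hspa8. Pio mouse 14 was at 54.1 CPM for Gstm4, 70.3 CPM for Inhbc and 55.7 CPM for Zfpm1, and Pio mouse 11 at 44.5 CPM for Fos and 3.88 CPM for S100a9.

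For 40 of the named genes the effects of Pio in KO and in WT mice differed (interaction contrast, edgeR, adjusted p of at most 0.05). The KO effect lay above the WT effect, in log2 units, by 4.20 for Gstm3, 3.12 for Dhrs9, 3.02 for Fos, 2.83 for Cdkn1a, 2.77 for Gdf15, 2.29 for Arntl, 2.24 for Csad, 2.14 for Hes1, 1.94 for Id3, 1.75 for Tnfaip2, 1.64 for Atg16l2, 1.59 for Dusp1, 1.52 for Bbc3, 1.44 for Nab2, 1.34 for Ier2, 1.24 for Gstm1, 0.88 for Gramd4 and 0.82 for Gstm4. The difference was negative at -8.65 for Cfd, -8.35 for Cyp2b9, -3.61 for Cyp7a1, -3.46 for A4gnt, -3.37 for Lrtm1, -2.98 for Aqp4, -2.83 for Mogat1, -2.71 for Plin4, -2.58 for Cidec, -2.12 for Nr4a2, -1.92 for Per2, -1.81 for Cyp2e1, -1.72 for Cd36, -1.59 for Cav1, -1.32 for Ctcfl, -1.22 for Pparg, -1.12 for Egln3, -0.96 for Adh7, -0.91 for Pik3r1, -0.87 for Pigr, -0.78 for Hsp90b1 and -0.60 for Dnajb4.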

How the results depend on the processing

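The 72 genes called for Pio in KO mice on control diet became 73 with RLE scaling and 66 with a filter of 1 CPM in 5 mice. They became 178 with DESeq2, 1203 with limma and sample weights, 1212 with limma, sample weights and mouse 13, 1256 with mouse 13, 269 in the 19 KO mice alone, 42 in the 9 mice alone and 21 with no filter on low counts. Leaving out 1 of the 39 mice gave 6 to 105. The difference from WT (721) became 1981 and 1989 with limma, without and with mouse 13, and 419 with no filter, and 314 to 1023 with 1 mouse left out, the lowest without Pio mouse 12. The WT calls (1988) became 3113 and 3076 with limma, 511 with mouse 13 and 1262 to 2479 with 1 mouse left out, the lowest without WT Pio mouse 845. The 0 calls on HFD became 9 with DESeq2, 2 with mouse 13 and 0 to 2 with 1 mouse left out (2 without KO HFD mice 6, 7 or 8). The 0 calls for the difference between diets became 33 and 35 with limma, without and with mouse 13. The cause of these changes was not tested, except that sample weights, fewer mice or more genes tested are part of the alternatives themselves.

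Over all named genes and alternatives, 6681 values kept their direction and side of the threshold, 402 lost the call and 148 gained one. Most named genes were not called in the main fit, so most of the 6681 are values that stayed uncalled. The 402 come from the called genes alone, so the 6681 do not measure how firm the calls were. A further 64 values of genes not called in either fit changed sign, such as Cd36 (-0.37 to 0.54), and 1 called value did, that of Zfpm1 with mouse 13, at 1.03. No paired analysis was possible because the mouse numbers are not shared between groups. The KO and WT tables, depth of 21542958 to 27183558 counts and 4 against 5 mice limit what could be called. The fit by limma with mouse 13, and the recounts of gene lists under each alternative, were chosen after seeing the data.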

Other observations

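Genes of complement and coagulation leaned lower in KO livers with Pio, without a call. Of 36 complement and coagulation genes tested, 33 had a log2 fold change below 0, and the median was -0.24. An unadjusted p under 0.05 was found in 6, all lower, beside 5.23% over all genes. Called were 0 by edgeR, 1 by DESeq2 and 8 by limma with sample weights. C3, the central complement protein, was at 7797, 8392, 12557, 13130.1 and 11783 CPM in the controls and 7094, 8262, 8308 and 5347 CPM with Pio (log2 fold change -0.57 ± 0.24, adjusted p = 0.356). Apob, the structural protein of very-low-density lipoprotein, was at 10411, 9212, 11008, 10586 and 11336 CPM and 8065, 7526, 8010.2 and 6636 CPM, with no overlap and without a call (log2 fold change -0.48 ± 0.15, adjusted p = 0.155). Of the 19 cell cycle genes tested, 18 were above 0 and 4 had an unadjusted p under 0.05, all higher, beside 5.3% over all genes. The median of the 19 was 0.54, with 0 calls by edgeR or DESeq2 and 2, both higher, by limma with sample weights. Ccnd1, the cyclin of the G1 phase, was at 11.7, 13.9, 12.3, 10.5 and 98.5 CPM and 39.9, 72.7, 22.2 and 27.9 CPM (adjusted p = 0.912), and control mouse 5 was the highest of the 9.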
